A study of Mus musculus with 10 samples.

Results

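The RNA levels of 10 genes of the REST repressor and the SWI/SNF chromatin remodelling complex were compared between the hippocampus of Tg(Dyrk1a) mice and that of wild-type littermates. The genes were Rest, Rcor1, Smarca2, Smarca4, Smarcb1, Smarcc1, Smarcc2, Arid1a, Arid1b and Actl6b, taken as a list of names; no measured value entered the rule, although earlier results of these data were known when the list was made. All 10 of the 10 were found, out of 19938 genes with a named transcript cluster, and each had a single transcript cluster, the set of probes along a transcript that the array summarises as 1 value. The Tg(Dyrk1a) group was 5 males in which a bacterial artificial chromosome supplies Dyrk1a, a kinase gene, in excess, and the wild-type group was 5 male littermates; all were 16 weeks old, and whole hippocampal RNA of each mouse went on 1 array. The labels give the background of all 10 mice as C57BL/6N, whereas the methods of the study describe backcrossing to C57BL/6J. A level in the whole hippocampus is a sum over neurons, glia and vessels.

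REST is a zinc finger protein that binds a long DNA element, RE1, near genes of neuronal function and keeps them repressed in cells that are not neurons. It recruits corepressors, among them RCOR1 (CoREST) with the demethylase KDM1A and the deacetylases HDAC1 and HDAC2, and SIN3A. The SWI/SNF or BAF complex slides nucleosomes with the energy of ATP, through SMARCA4 (BRG1) or its paralogue SMARCA2 (BRM) as the motor. SMARCB1 and the paralogues SMARCC1 and SMARCC2 form the core of the complex, ARID1A and ARID1B are alternative large subunits that define the canonical BAF form, and ACTL6B (BAF53b) is the actin-related subunit of neurons, which takes the place of ACTL6A when progenitors leave the cell cycle. DYRK1A has been described as a partner of SWI/SNF subunits, and its dosage has been linked to the level of Rest RNA in models of Down syndrome. The comparison therefore asks whether the RNA of these genes differs in the adult hippocampus when Dyrk1a is the gene in excess.

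The DNA that REST reads is shown first, because 1 of the remodeller genes, Actl6b, holds its letters near its start. RE1 is built of a left and a right arm. RefSeq promoter windows of 300 bases in GRCm38.p6, from 250 bases before to 50 bases after a start site, were searched on both strands for a core of AGCACC and GGACAG with any 2 bases between them. It occurred in 17 of 32851 windows (0.0517%), those of 16 genes, and in none of the windows found for 9 of the 10 genes; Rest had no window in the table. In the lines below the letters in capitals are the arms of the match, and each line runs 5′ to 3′ on the strand that reads the left arm first. Gad2, an enzyme of GABA synthesis, and Gria2, an AMPA receptor subunit, are shown as windows with the core near a neuronal gene, and Actl6b as the only one of the 9 genes with both arms:
Gad2, chr2:22622160-22622180, plus strand: tggtAGCACCctGGACAGcgc
Gria2, chr3:80802988-80803008, plus strand: ttttAGCACCgcGGACAGcgc
Actl6b, chr5:137553564-137553593, minus strand: ggatCAGCACCgaggcggccGGACAGctcc

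In Actl6b the arms CAGCACC and GGACAG stood 9 bases apart, not the 2 bases of the core, and the stretch was centred 32 bases downstream of the start site of its window. RE1 elements with such a wider gap are known as a noncanonical form. Gaps of 8, 9 and 10 bases were searched on either strand. The arms were found 9 bases apart in 4 of 32851 windows (0.0122%), 8 bases apart in 6 and 10 bases apart in 2, and of the 9 genes with windows only Actl6b was among them, while CAGCACC alone was found in 7.14% and GGACAG alone in 22.2% of windows. Of the other genes, GGACAG without the left arm lay in windows of Arid1a, Arid1b and Smarcc2. These are matches of letters and no binding was measured. The 10 windows of the 9 genes, 2 of them of Arid1a, were rich in CG dinucleotides, with 22 to 48 each, against a median of 7 over all windows.

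Dyrk1a, measured first as a check of the labels, rose in Tg(Dyrk1a). Its brighter transcript cluster stood at 11.65 ± 0.02 in Tg(Dyrk1a) and 11.18 ± 0.06 in wild-type mice on the log2 scale (SD, n = 5 each), 1.38-fold with a 95% interval of 1.31 to 1.46 (limma adjusted p = 0.000138). A dimmer one differed by 0.16 ± 0.05 (SE; limma adjusted p = 0.947). The 95% interval of the dimmer one was 0.05 to 0.26 before adjustment (limma unadjusted p = 0.00620), and its groups did not overlap, as in 0.807% of all transcript clusters. Array medians lay between 6.57 and 6.66, and any pair of arrays correlated at 0.996 or above across annotated transcript clusters. The 9 neuron markers, among them Rbfox3 and the dentate gyrus marker Prox1, averaged 11.94 to 11.99 in Tg(Dyrk1a) and 11.90 to 11.98 in wild-type arrays. Mean scores of astrocyte, oligodendrocyte and microglia markers differed between the genotypes by 0.02, 0.02 and 0.01. Markers of tissue that borders the hippocampus varied more between arrays. The choroid plexus score, the mean over 11 marker genes of the log2 value minus its mean over the arrays, ran from -0.72 to 1.14 in Tg(Dyrk1a) and from -0.57 to 1.10 in wild-type mice, with scores over 0.5 for replicates 2 and 4 of Tg(Dyrk1a) and replicate 5 of wild type. Scores of vessel markers (11 genes) ran from 0.00 to 0.12 in Tg(Dyrk1a) and from -0.19 to 0.02 in wild-type mice. Those of meninges (10 genes) ran from -0.09 to 0.28 in Tg(Dyrk1a) and from -0.23 to 0.04 in wild-type mice. All 10 meninges genes were above 0 in Tg(Dyrk1a) minus wild type before rounding, beside 50.9% of all transcript clusters, though Col1a1 was at 0.00 and Col1a2 at 0.02. Of the 10, 4 had an unadjusted limma p under 0.05, beside 4.93% of all transcript clusters, and 0 passed after adjustment. Among choroid plexus genes Ttr (transthyretin) ran from 7.97 to 13.19 in Tg(Dyrk1a) and from 9.49 to 13.24 in wild-type mice. Thalamus markers (8 genes) scored from -0.12 to -0.02 in Tg(Dyrk1a) and from -0.10 to 0.53 in wild-type mice, with wild type replicate 5 the highest. All 8 genes were lower on average in Tg(Dyrk1a), where 50.9% of all transcript clusters were higher, and 0 of the 8 had an unadjusted limma p under 0.05.

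No difference between the genotypes in any of the 10 genes passed limma, and the values of Tg(Dyrk1a) and wild-type mice overlapped for each of them. With limma and Benjamini-Hochberg adjustment over 23410 annotated transcript clusters, 0 of the 10 passed at an adjusted p under 0.05, where 0.00854% of all transcript clusters passed, and 0 of the 10 had an unadjusted p under 0.05, where 4.93% did (2.99% higher and 1.94% lower in Tg(Dyrk1a)). With FCROS, the rank method of the study, 0 of the 10 were past its threshold against 4.83% of all. The groups did not overlap in 0 of the 10 and in 0.807% of all transcript clusters. The log2 fold changes ran from -0.05 to 0.08, with 5 above and 5 below 0 and a median of -0.009, beside 50.9% above 0 and a median of 0.001 over all annotated transcript clusters. The median absolute log2 fold change was 0.034, beside 0.032 over all. A p that misses a threshold does not show that levels are equal, and the intervals below bound the difference on the scale of the array, which compresses fold changes.

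**Figure D1:**
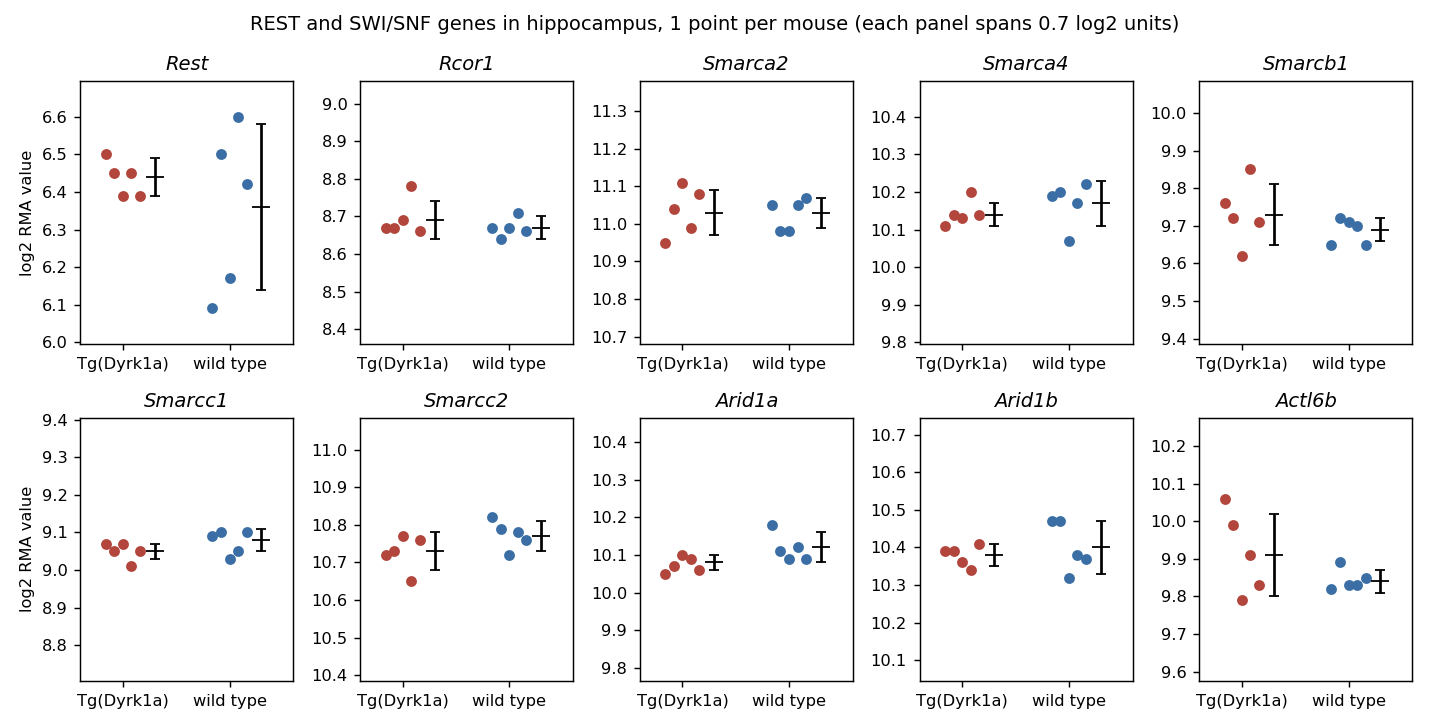
Log2 RMA values (vertical axes) of the 10 genes in the hippocampus of Tg(Dyrk1a) and wild-type mice, 1 point per mouse, with the mean and SD of 5 mice beside the points; each panel spans 0.7 log2 units, so heights can be compared between panels. The points of the genotypes overlap in every panel, and Rest spreads from 6.39 to 6.50 in Tg(Dyrk1a) mice and from 6.09 to 6.60 in wild-type mice.

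Rest, the DNA-binding repressor itself, had log2 values of 6.50, 6.45, 6.39, 6.45 and 6.39 in Tg(Dyrk1a) replicates 1 to 5, against 6.09, 6.50, 6.17, 6.60 and 6.42 in wild type replicates 1 to 5. All 5 Tg(Dyrk1a) values lay inside the range of the wild-type values, and above their mean; wild type replicates 1 and 3 were the lowest of the 10 arrays. The means were 6.44 ± 0.05 in Tg(Dyrk1a) and 6.36 ± 0.22 in wild-type mice (SD, n = 5 each), and Tg(Dyrk1a) minus wild type was 0.08 ± 0.08 (SE) in log2, that is 1.06-fold (95% interval 0.933 to 1.20; limma adjusted p = 0.966; exact permutation p = 0.421, two-sided). Without wild type replicate 1 the log2 fold change was 0.02, without wild type replicate 3 it was 0.03, and without wild type replicate 4, the highest, it was 0.14. Rest was a dim transcript cluster, close to the median of each array, and its spread within groups was larger than that of 93% of the 500 transcript clusters nearest to it in mean level. After the group means were taken out, Rest followed the vessel marker score over the 10 arrays at r = 0.73, the neuron score at 0.60 and the microglia score at 0.56. With the other scores r lay between -0.35 and 0.31. These are correlations of 10 arrays that share tissue makeup and are given as a description. The vessel score was 0.14 higher on average in Tg(Dyrk1a), with 9 of its 11 genes above 0, beside 50.9% of all transcript clusters. Of the 11, 5 had an unadjusted limma p under 0.05, beside 4.93% of all, and none of them passed after adjustment. The part of the vessel score in the Rest values was not tested. In such bulk tissue fewer cells of a type and less RNA per cell cannot be told apart.

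Rcor1, which encodes the CoREST scaffold between REST and its histone-modifying enzymes, was measured at 8.67, 8.67, 8.69, 8.78 and 8.66 in Tg(Dyrk1a) replicates 1 to 5, against 8.67, 8.64, 8.67, 8.71 and 8.66 in wild type replicates 1 to 5. Apart from Tg(Dyrk1a) replicate 4, which was the highest, the arrays of both genotypes covered the same narrow band. The log2 fold change was 0.02 ± 0.03 (SE) with a 95% interval from -0.05 to 0.09 (limma adjusted p = 0.969). Its SD within groups, 0.04, was larger than that of only 6% of the 500 transcript clusters nearest in mean level.

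**Figure D2:**
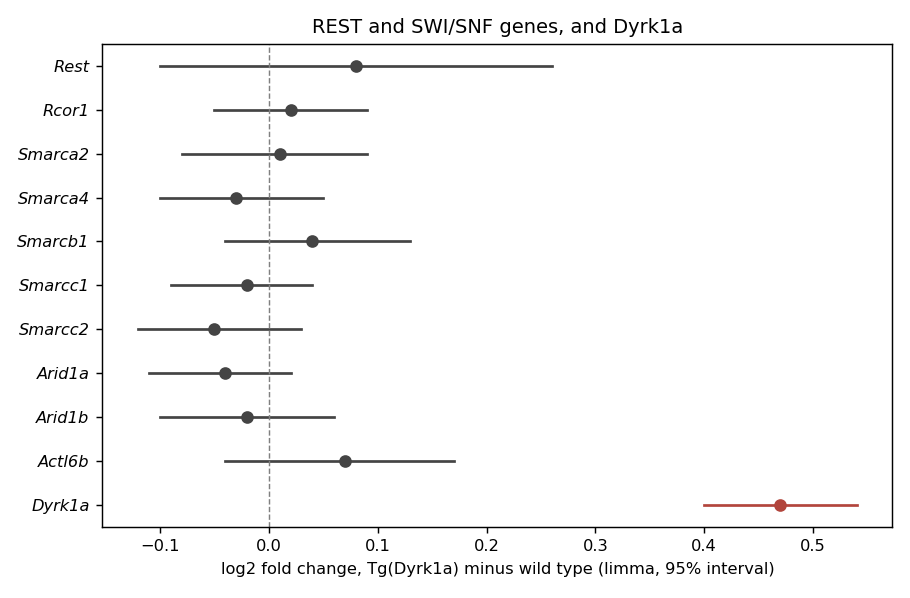
Difference in log2 value between Tg(Dyrk1a) and wild-type mice (horizontal axis; above 0, higher in Tg(Dyrk1a)) for the 10 genes and Dyrk1a, with points for limma estimates and bars for 95% intervals before adjustment, 5 mice per group. All 10 intervals include 0 and reach no higher than 0.26, the upper end for Rest, while that of Dyrk1a runs from 0.40 to 0.54.

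The values of the motors of the remodeller overlapped between the genotypes. Smarca4 had values of 10.11, 10.14, 10.13, 10.20 and 10.14 in Tg(Dyrk1a) replicates 1 to 5, against 10.19, 10.20, 10.07, 10.17 and 10.22 in wild type replicates 1 to 5. Wild type replicate 3 was the lowest of all 10, and 4 of the 5 Tg(Dyrk1a) values were below the wild-type mean of 10.17. The log2 fold change of Smarca4 was -0.03 ± 0.03 (SE), with a 95% interval of -0.10 to 0.05 (limma adjusted p = 0.970). Its paralogue Smarca2, the motor that remains expressed in many differentiated cells, had 10.95, 11.04, 11.11, 10.99 and 11.08 in Tg(Dyrk1a) replicates 1 to 5, against 11.05, 10.98, 10.98, 11.05 and 11.07 in wild type replicates 1 to 5. Both ends of this range belonged to Tg(Dyrk1a) mice. At 0.01 ± 0.04 (SE; 95% interval -0.08 to 0.09; limma adjusted p = 0.994) it had the smallest log2 fold change of the 10, and its sign turned when any of 4 arrays was left out. Smarca4 lies on chromosome 9 from 21616106 to 21704230 and Smarca2 on chromosome 19 from 26605073 to 26778321 in GRCm38.p6.

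The core subunits overlapped in the same way. Smarcb1, which is lost in rhabdoid tumours in humans, ranged from 9.62 to 9.85 in Tg(Dyrk1a) and from 9.65 to 9.72 in wild-type mice, with a log2 fold change of 0.04 ± 0.04 (SE; 95% interval -0.04 to 0.13). Both the lowest and the highest value of Smarcb1 came from Tg(Dyrk1a) mice, replicates 3 and 4, and its log2 fold change was 0.07 without replicate 3, 0.01 without replicate 4, 0.00 without the 3 arrays of high choroid plexus score, and 0.12 with the choroid plexus and meninges scores as covariates. Smarcc1 (BAF155) ranged from 9.01 to 9.07 in Tg(Dyrk1a) and from 9.03 to 9.10 in wild-type mice, at -0.02 ± 0.03 (SE; 95% interval -0.09 to 0.04). Its whole range over the 10 arrays was 0.09, the narrowest of the 10 genes. Smarcc2 (BAF170) had 10.72, 10.73, 10.77, 10.65 and 10.76 in Tg(Dyrk1a) replicates 1 to 5, against 10.82, 10.79, 10.72, 10.78 and 10.76 in wild type replicates 1 to 5. Every Tg(Dyrk1a) value of Smarcc2 lay below the wild-type mean of 10.77, but wild type replicate 3, at 10.72, was at or below 4 of them to 2 decimals. With the choroid plexus and meninges scores as covariates Smarcc2 was at -0.09. Its log2 fold change of -0.05 ± 0.03 (SE; 95% interval -0.12 to 0.03; limma adjusted p = 0.950) was the lowest of the 10. The limma adjusted p were 0.956 for Smarcb1 and 0.969 for Smarcc1.

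Of the alternative large subunits, Arid1a had the smallest p of the 10 genes. Its values were 10.05, 10.07, 10.10, 10.09 and 10.06 in Tg(Dyrk1a) replicates 1 to 5, against 10.18, 10.11, 10.09, 10.12 and 10.09 in wild type replicates 1 to 5. All 5 Tg(Dyrk1a) values were below the wild-type mean of 10.12, and the groups overlapped through Tg(Dyrk1a) replicate 3 and wild type replicates 3 and 5. In log2 the difference was -0.04 ± 0.03 (SE), a fold of 0.970 (95% interval 0.928 to 1.01; limma unadjusted p = 0.158, adjusted p = 0.948). The exact permutation p of Arid1a was 0.0317 before adjustment, with 1 of the 10 genes under 0.05 on that test and 5.05% of all annotated transcript clusters. The SD of Arid1a within groups, 0.03, was larger than that of 2% of the 500 transcript clusters nearest in mean level, and limma draws such small spreads towards the common one. Arid1b ranged from 10.34 to 10.41 in Tg(Dyrk1a) and from 10.32 to 10.47 in wild-type mice, at -0.02 ± 0.04 (SE; limma adjusted p = 0.973). Arid1a lies on chromosome 4 from 133679008 to 133756769 and Arid1b on chromosome 17 from 4994297 to 5347656.

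Actl6b, the neuronal subunit with the paired arms shown above, had values of 10.06, 9.99, 9.79, 9.91 and 9.83 in Tg(Dyrk1a) replicates 1 to 5, against 9.82, 9.89, 9.83, 9.83 and 9.85 in wild type replicates 1 to 5. Tg(Dyrk1a) replicates 1, 2 and 4 were above all wild-type values, while Tg(Dyrk1a) replicate 3 was below them. The means were 9.91 ± 0.11 in Tg(Dyrk1a) and 9.84 ± 0.03 in wild-type mice (SD, n = 5 each), and the difference in log2 was 0.07 ± 0.05 (SE), that is 1.05-fold (95% interval 0.975 to 1.13; limma adjusted p = 0.949; exact permutation p = 0.246). The difference was 0.03 without Tg(Dyrk1a) replicate 1, 0.02 with array weights, and 0.16 with the choroid plexus and meninges scores as covariates (limma adjusted p = 0.863). The meninges score was itself 0.20 higher on average in Tg(Dyrk1a), so the covariate fit cannot fully tell it apart from genotype. Its counterpart of progenitors, Actl6a, had 8.45 ± 0.12 in Tg(Dyrk1a) and 8.41 ± 0.04 in wild-type mice (SD, n = 5 each), a log2 fold change of 0.04 ± 0.05 (SE). Actl6b lies on chromosome 5 from 137553361 to 137569582, and Rest on the same chromosome from 77265494 to 77286432.

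For 4 of the 10 genes all 5 Tg(Dyrk1a) arrays lay on 1 side of the wild-type mean, Rest above it and Smarcc1, Smarcc2 and Arid1a below it. Over all annotated transcript clusters 14.6% had this pattern. After the group means were taken out, the 45 pairs of genes correlated over the 10 arrays between -0.80 and 0.72, with a median r of 0.14 and 28 pairs above 0. The highest pair was Smarcc2 with Arid1b (0.72), followed by Smarcc1 with Smarcc2 (0.67), and the lowest was Smarca2 with Smarcb1 (-0.80). Averaged over the 10 genes, an array deviated from the overall mean by between -0.01 and 0.01 in Tg(Dyrk1a) and between -0.06 and 0.03 in wild-type mice.

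**Figure D3:**
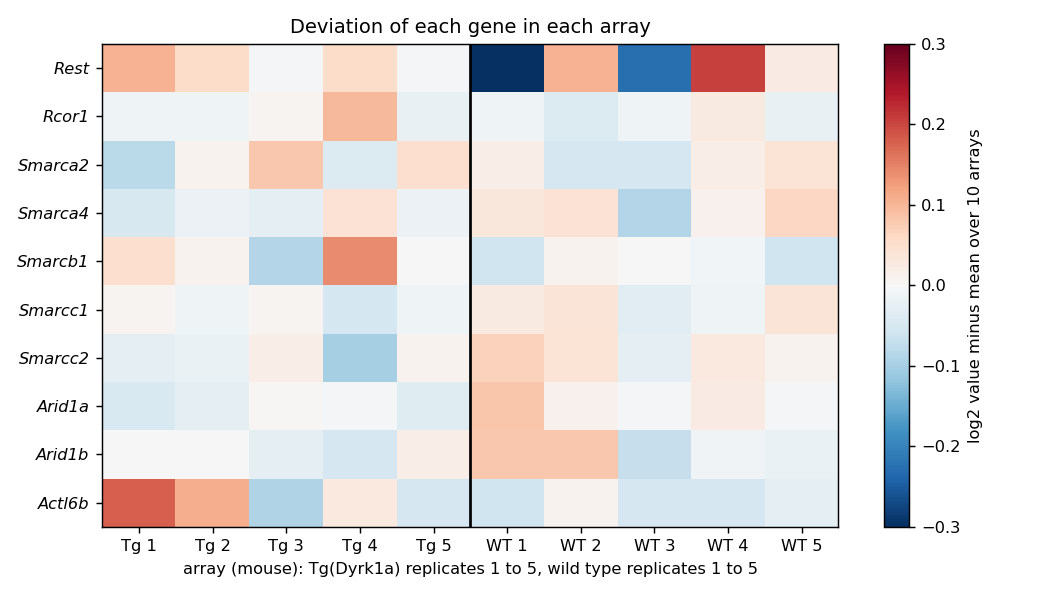
Deviation of the log2 value of each gene from its mean over the 10 arrays (colour; red above, blue below), with Tg(Dyrk1a) arrays in the left and wild-type arrays in the right columns. The strongest colours are those of Rest in wild type replicates 1, 3 and 4, and of Actl6b in Tg(Dyrk1a) replicate 1, where it stood at 10.06.

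The genes most like Rest across mice, by Pearson's r over the 10 arrays after group means were taken out and among 10967 transcript clusters brighter than the median, were Tgfbr1 (0.92), Ccnd2 (0.91) and S1pr3 (0.91). For Actl6b they were Rmnd5b (0.96), Dad1 (0.95) and Fam171a1 (0.94). These are the highest of many correlations over few arrays and carry no test.

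Other components of the same machinery were examined next. Of 14 other components that act with REST, 13 were measured, and 0 passed limma in either direction. Their log2 fold changes ran from -0.03 to 0.07 with a median of 0.018. Sin3a, the scaffold of the other REST corepressor arm, was at 7.79 ± 0.04 in Tg(Dyrk1a) and 7.72 ± 0.04 in wild-type mice (SD, n = 5 each), a log2 fold change of 0.07 ± 0.03 (SE; limma adjusted p = 0.947). Hdac1 was at 0.05 ± 0.03 and Rcor2, a paralogue of Rcor1, at 0.05 ± 0.05 (SE), and the other Hdac1 transcript cluster was at 0.06. The demethylase gene Kdm1a, the enzymatic partner of Rcor1, was at 0.00 ± 0.03 (SE).

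Of 23 other SWI/SNF subunits, all 23 were measured, 0 passed limma, and the log2 fold changes ran from -0.07 to 0.11 with a median of -0.004. Brd9, the bromodomain subunit of the noncanonical form of the complex, which lacks the ARID1 proteins, was the 1 of 23 subunits with an unadjusted limma p under 0.05, a share near the 4.93% of all transcript clusters, and also the 1 of 23 past the threshold of FCROS, beside 4.83% of all. It ranged from 9.08 to 9.19, with a mean of 9.13 ± 0.04, in Tg(Dyrk1a) and from 8.95 to 9.12, with a mean of 9.02 ± 0.06, in wild-type mice (SD, n = 5 each). Only wild type replicate 5 reached into the range of the Tg(Dyrk1a) mice. Brd9 differed by 0.11 ± 0.04 (SE) in log2, with an unadjusted p of 0.0125 and an adjusted p of 0.947 by limma, and between 0.09 and 0.13 with any array left out. Bcl7c, an accessory subunit, was at -0.07 ± 0.05 (SE), but at 0.02 with the choroid plexus and meninges scores as covariates, and Phf10, a subunit of the polybromo form, at -0.04 ± 0.04 (SE). The other neuronal subunits Dpf1, Dpf3 and Ss18l1 were at 0.04, -0.02 and -0.01.

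**Figure D4:**
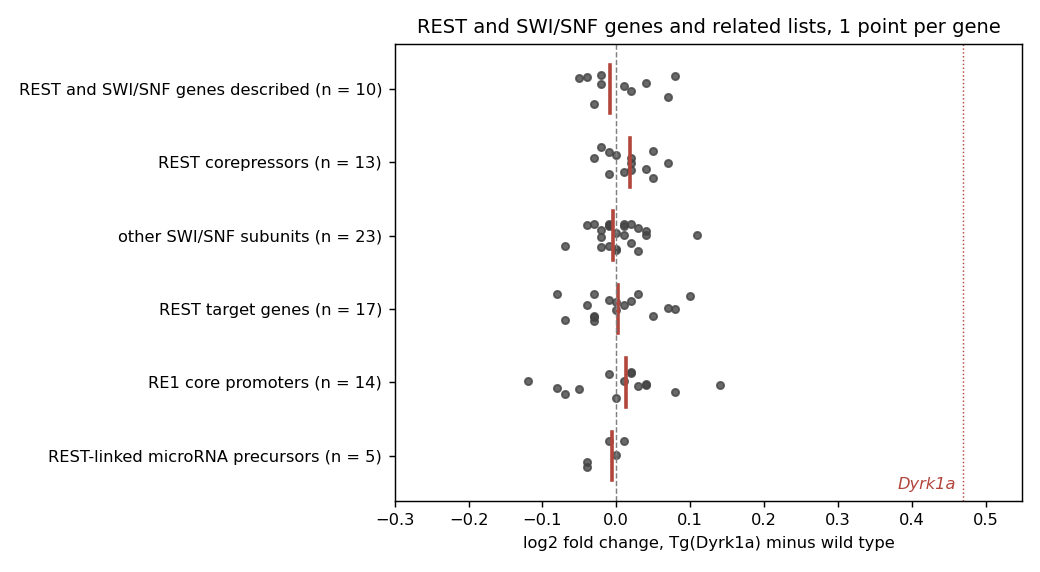
Differences in log2 value between Tg(Dyrk1a) and wild-type mice (horizontal axis; above 0, higher in Tg(Dyrk1a)) for the 10 genes and 5 related gene lists, 1 point per gene, with a red bar for the median of each list and a dotted line at 0.47 for Dyrk1a; vertical scatter within a list has no meaning. The points lie between -0.12 (Hrh3) and 0.14 (Gad2), and the medians between -0.009 and 0.018.

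Genes that REST is known to repress outside neurons were compared as well. Their level in the whole hippocampus includes the RNA of neurons, so these values do not measure the activity of REST. Of 20 such genes 17 were measured, and 0 passed limma, with log2 fold changes from -0.08 to 0.10, 9 above and 8 below 0, and a median of 0.002. FCROS called 1 of the 17, Oprm1, against 4.83% of all transcript clusters. Oprm1, the mu opioid receptor gene, had the smallest p, at 6.81 ± 0.06 in Tg(Dyrk1a) and 6.70 ± 0.04 in wild-type mice (SD, n = 5 each), a log2 fold change of 0.10 ± 0.04 (SE; limma unadjusted p = 0.0135, adjusted p = 0.947). Calb1, a calcium buffer of granule cells, was at 0.07 ± 0.04 and Bdnf, a neurotrophin, at 0.05 ± 0.04 (SE). The synaptic genes Syn1, Syp and Snap25 were at -0.03, 0.00 and -0.01. Among the 16 genes whose promoter window held the RE1 core, 14 were measured and 0 passed limma, with 9 above and 5 below 0 and a median of 0.013. FCROS called 1 of the 14, Gad2, beside 4.83% of all transcript clusters. Gad2 was also the 1 of 14 with an unadjusted limma p under 0.05, beside 4.93% of all. Gad2, whose match to the core is printed above, had 10.23, 10.12, 10.28, 10.22 and 10.18 in Tg(Dyrk1a) replicates 1 to 5, against 10.17, 10.02, 9.99, 10.03 and 10.14 in wild type replicates 1 to 5. Tg(Dyrk1a) replicate 2 was the only one of that genotype within the wild-type range. The log2 fold change of Gad2 was 0.14 ± 0.04 (SE; limma unadjusted p = 0.00813, adjusted p = 0.947), and Gria2, whose match is printed beside it, was at 0.00 ± 0.04 (SE; limma adjusted p = 0.997). Robo2, an axon guidance receptor gene, was at 0.08 ± 0.04 and Lca5, a gene of the photoreceptor cilium, at -0.05 ± 0.03 (SE).

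MicroRNAs connect the repressor and the remodeller in earlier work, in which REST holds down the genes of miR-9, miR-124 and miR-132 outside neurons, and miR-9-3p (miR-9*) and miR-124 repress Actl6a when Actl6b takes over. The mature sequences of miR-9 from RefSeq (GRCm38.p6, Mir9-1 on chromosome 3) are printed with the seed, bases 2 to 8, in capitals:
mmu-miR-9-3p: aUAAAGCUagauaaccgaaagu
mmu-miR-9-5p: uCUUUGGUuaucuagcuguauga

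The array measured 5 precursor genes of these microRNAs, not the mature strands. Mir9-1 was at 7.05 ± 0.21 in Tg(Dyrk1a) and 7.05 ± 0.10 in wild-type mice (SD, n = 5 each), a log2 fold change of 0.00 ± 0.09 (SE). Mir9-3, Mir124a-2, Mir124a-3 and Mir132 were at 0.01, -0.04, -0.01 and -0.04, and 0 of the 5 passed limma (adjusted p of 0.969 or above). Several of these transcript clusters were dim, with group means down to 5.32, where a change would be compressed.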

How the data were processed

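The authors hybridised RNA of 10 mice to Affymetrix Mouse Gene 1.0 ST arrays and deposited log2 values made with RMA, the robust multi-array average. The submitters' processing notes name RMA, limma and mm10. Which arrays were normalized together is not given in the sources used here. RMA compresses fold changes, above all of dim transcript clusters. Levels of different transcript clusters are not comparable.

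The table held 35556 rows, of which 23410 had a gene in the platform annotation (21789 with 1 symbol, 1621 with several). Each gene was represented by its transcript cluster with the highest mean. The groups were tested in limma (3.58.1; R 4.3.3) without covariates, with Benjamini-Hochberg adjustment over the 23410 at 0.05. Single genes had a two-sided exact permutation test over 252 assignments (smallest possible p = 0.00794). FCROS was rewritten from its description, with 25% of ranks trimmed at each end, and its outer 0.025 on either side counted. Named genes were the 10 genes, the 3 smallest p of each related list, and the 3 genes most like Rest and Actl6b; others of a list were named for their role. The members and lists were chosen with earlier results of these data known; the microRNA list and the motif search were added after the annotation had been seen. Scripts were tested on simulated data. Listed genes without a measured value were not analysed here. Coordinates and sequences are from RefSeq, GRCm38.p6.

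The fit was repeated on arrays centred on their medians or normalized by quantiles; on all rows, or without the dimmest 30%; with array weights, or with robust estimation and a variance trend; with a block for the replicate number; on the mean of a gene's transcript clusters; without each array; without arrays whose choroid plexus score exceeded 0.5; and with the scores of choroid plexus and meninges as covariates. The precision is limited by the number of arrays, 5 per group.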

Additional observations from a re-analysis of the deposited data

Results flagged for a closer look

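In Tg(Dyrk1a) replicate 4, Rcor1 stood at 8.78, apart from the other 4 Tg(Dyrk1a) values, of which the nearest was 8.69. The gap was 0.769 of the range of the group, over Dixon's limit for 5 values. It was 1 of 22 groups examined, over the 10 genes and Dyrk1a, and chance flags about 1 in 20. The same array had a choroid plexus score of 0.85, and the part of that score in the Rcor1 value was not tested.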

How the results depend on the processing

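With FCROS 1131 annotated transcript clusters (4.83%) lay past its limits, against 2 that passed limma. The FCROS limits are scaled to the spread of the mean ranks themselves. A similar share would therefore lie past them whether or not the genotypes differ, and the count is not one of detected differences. The limma count was 5 with array weights, and 1 each with median centring, with all rows tested, with a variance trend and robust estimation, when the 3 arrays with high choroid plexus scores were left out, and with the choroid plexus and meninges scores as covariates. With 1 array left out it ran from 1 to 2, with 2 only without Tg(Dyrk1a) replicate 2. With the replicate number as a block it was 1, and Dyrk1a stayed at 0.47 (limma adjusted p = 0.0179). The labels do not state that mice with the same replicate number are pairs. Deviations of same-numbered mice correlated between -0.29 and 0.28, and 1 of 5 numbers matched itself best. Such correlations cannot tell whether mice were paired, since paired mice need not deviate alike. Under all of these, FCROS included, 0 of the 10 REST and SWI/SNF genes passed.

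The median log2 fold change of the 10 genes was 0.006 with median centring, against -0.009, and with 1 array left out it ran from -0.021 to 0.004, turning sign without Tg(Dyrk1a) replicate 1 (0.004) or wild type replicates 1 (0.002) or 5 (0.001). Dyrk1a ran from 0.46 to 0.49 with 1 array left out and was 0.31 as the mean of its transcript clusters (limma adjusted p = 0.0222). With the marker scores as covariates Smarca2 was at -0.08, Actl6b at 0.16, Smarcb1 at 0.12, Smarcc2 at -0.09 and Rest at 0.04. In that fit Dyrk1a was at 0.46 with a limma adjusted p of 0.0430, against 0.000138 without covariates. The meninges score was itself 0.20 higher on average in Tg(Dyrk1a), so that fit cannot fully tell it apart from genotype. With array weights Rest was at 0.01. Smarca2 ran from -0.01 to 0.03 with 1 array left out. Of 200 values of single genes under 20 alternatives, 5, all of Smarca2, had the opposite sign to 2 decimals. The other 195 did not, but they include values of 0.00 for Smarca2, Rcor1 and Smarcb1, which have no direction at this rounding. The smallest limma adjusted p was 0.758. The cause was not tested.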

Other observations

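Rest differed in spread more than in level. Its SD was 0.05 in Tg(Dyrk1a) and 0.22 in wild-type mice, and 0.525% of annotated transcript clusters had a ratio of wild-type to Tg(Dyrk1a) SD at least as large. This was seen in the values and then described, so it carries no test. In the wild-type mice the low values were those of replicates 1 and 3, at 6.09 and 6.17, whose vessel marker scores were -0.12 and -0.19, the lowest of the 10 arrays. Their neuron marker scores, -0.03 and -0.05, were also the lowest of the 10. Their meninges scores were -0.17 each, but the lowest meninges score, -0.23, was that of wild type replicate 2, with Rest at 6.50. The part of any of these scores in the Rest values was not tested.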
